A study of Mus musculus with 40 samples.

Results

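Jagged1 and Jagged2 (Jag1 and Jag2) are ligands of the Notch receptors, and the comparison described here is their blockade in brown adipose tissue of mice that also received thyroid hormone. Its members are 10 of the 40 mice of the study, chosen by their labels: 5 mice given blocking antibodies against Jag1 and Jag2 together with T3 and T4 (aJ1aJ2+T3T4, mouse numbers 6 to 10) and 5 mice given an antibody against ragweed, an isotype control, together with T3 and T4 (RW+T3T4, numbers 1 to 5). They are called Jag antibody mice and control mice below, and all 10 were collected 7 d after the antibody. Every animal was a male C57BL/6 mouse from Jackson, 10 to 12 weeks old by the design text and up to 14 weeks by the protocol. One intraperitoneal dose of antibody was given, 20 mg/kg of each Jag antibody or 40 mg/kg of the control antibody. From day 2 all 10 mice received 1 ug of T4 (thyroxine) and 0.05 ug of T3 (its active form) per g of body weight daily. The other 30 mice received the same antibodies without hormone and were collected at 15 h, 5 d or 7 d, 5 per group. The groups with hormone hold no mouse without antibody, and the 2 Jag antibodies were only given together, so the share of each ligand cannot be told apart.

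Brown adipose tissue burns fat to make heat, through uncoupling protein 1 in its mitochondria, and both sympathetic nerves, which act on beta-adrenergic receptors, and thyroid hormone raise its activity. Notch receptors on one cell are cut when they bind a Jagged or Delta-like ligand on a neighbour, and the freed intracellular part joins the DNA-binding protein RBPJ to switch on target genes. In blood vessels Jag1 on endothelial cells is known to act on Notch3 of the pericytes and smooth muscle cells that wrap them, the mural cells, and Notch3 is a target of its own signal.

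Each of the 10 libraries held 16905015 to 26502813 counts. Levels are given as CPM, counts scaled to library size with edgeR's TMM factors. A gene is called when its p from edgeR's quasi-likelihood test, adjusted by Benjamini-Hochberg over all tested genes, is under 0.05. Because CPM carry no gene length, levels are compared between mice and not between genes. The total count did not differ detectably between antibodies (exact two-sided permutation test, p = 0.437, n = 5 per group). The share of counts from the mitochondrial genome was 16.4% ± 1.06 (SD, n = 5) in Jag antibody mice and 12.8% ± 2.03 (SD, n = 5) in control mice, with an exact permutation p of 0.0159 and an adjusted p of 0.0952 over 6 library measures. The groups overlapped in this share, with 15.1 to 18.0% against 10.8 to 15.5%. Skeletal muscle RNA, scored over 8 muscle genes on the log2 CPM scale, ran from -0.824 to 8.78 in Jag antibody mice and from -1.96 to 10.4 in control mice, so libraries of both groups held it. With this score as a covariate 221 genes were called. Ucp1, the uncoupling protein that defines brown fat, stood at 5307, 5417, 2787, 5519 and 4369 CPM in control mice 1 to 5 and at 3391, 6249, 4457, 4559 and 5500.0 CPM in Jag antibody mice 6 to 10. Some genes that every cell uses were nearly uncounted, such as Gapdh with 1 to 7 counts and the ribosomal protein gene Rps6 with 0 to 4 counts per mouse, and genes with near-identical copies are taken as uncertain here. The labels describe 5 mice per group but do not say how the animals were housed or processed in batches. The p-values thus set differences against the spread between libraries within groups. For edgeR that spread is estimated over all 40 libraries of the 8 groups.

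Between antibodies under hormone, 194 of 17079 tested genes were called (1.14%), 119 higher (0.697%) and 75 lower (0.439%) in the Jag antibody mice. All 5 values of one group lay beyond all 5 of the other for 164 of the called genes, and for 6.59% of all tested genes (3.98% with the Jag antibody mice higher and 2.61% with them lower). The log2 fold change reached 1 in size for 133 called genes, and 172 were protein coding. The median over all tested genes was -0.02. The share of calls that were higher, 61.3%, moved to 75.7% with offsets for gene length and GC content (227 higher and 73 lower) and to 44.4% with limma on log2(FPKM + 1) (224 higher and 281 lower). Leaving out 1 mouse gave from 80 calls (without Jag antibody mouse 10) to 232 (without Jag antibody mouse 9). The count fell by more than 1.5 times without control mouse 2 (113 calls), 3 (90), 4 (95) or 5 (111) and without Jag antibody mouse 6 (84), 8 (110) or 10. Of the 51 named genes, 25 stayed called in every such fit and under every alternative, and none reversed.

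**Figure D1:**
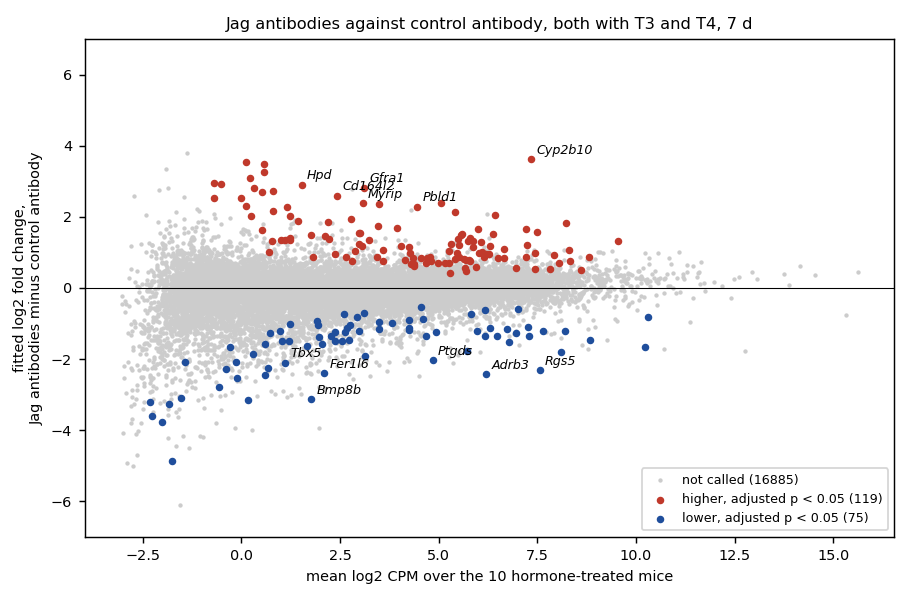
Each point is 1 of the 17079 tested genes: the mean log2 CPM over the 10 mice with hormone on the horizontal axis and the fitted log2 fold change, Jag antibodies minus control antibody, on the vertical axis. Red marks the 119 genes called higher and blue the 75 called lower, with Cyp2b10 highest among the well counted genes and Adrb3, Rgs5 and Bmp8b among the lowest.

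Several genes of the mural cells were lower in the Jag antibody mice. Of 18 pericyte genes, 6 were called lower and 0 higher, all 18 had a negative log2 fold change, and the median was -0.72 against -0.02 over all genes. The summed level of the list was 584 to 1067 CPM in the Jag antibody mice and 1056 to 1900.4 CPM in the control mice, so that the groups met at their edges. In bulk tissue fewer pericytes and less RNA per pericyte cannot be told apart. Rgs5, a regulator of G protein signalling and a standard pericyte marker at chr1:169655501-169695813 (GENCODE M21, GRCm38), stood at 420.2, 556, 407, 309 and 444 CPM in control mice 1 to 5 and at 67.0, 73.5, 98.9, 99.1 and 88.9 CPM in Jag antibody mice 6 to 10. All 5 Jag antibody values lay far below the lowest control value (log2 fold change -2.32 ± 0.31 (SE), adjusted p = 7.23e-05). The same gene differed by -2.37 (adjusted p = 2.54e-05) between the antibodies at 7 d without hormone. Notch3, the Notch receptor of mural cells at chr17:32120820-32166852, gave 40.4, 44.1, 42.9, 36.8 and 43.6 CPM in control mice and 11.01, 10.7, 22.5, 20.3 and 16.7 CPM in Jag antibody mice, with no overlap. Notch3 changed by -1.35 ± 0.35 on the log2 scale (SE, adjusted p = 0.0455), and the call was lost without mouse 1, 2, 3, 4, 5, 6, 7, 8 or 10 (adjusted p up to 0.148) and with no low-count filter.

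A pair of pericyte genes encode variant parts of the respiratory chain. Ndufa4l2, a paralog of a cytochrome c oxidase subunit that is known to respond to hypoxia, gave 8.32, 4.79, 7.02, 9.61 and 6.59 CPM in control and 1.199, 2.85, 2.17, 2.68 and 3.14 CPM in Jag antibody mice (log2 fold change -1.59 ± 0.29 (SE), adjusted p = 0.00234). Its gene overlaps Shmt2, and the sources used here do not say whether counting used the strand. Cox4i2, the lung-type isoform of cytochrome c oxidase subunit 4, gave 3.88, 3.24, 3.33, 4.71 and 3.95 CPM and 0.763, 1.38, 1.37, 1.14 and 2.15 CPM in the same order (log2 fold change -1.49 ± 0.33 (SE), adjusted p = 0.013), and its call was lost without mouse 6 (adjusted p up to 0.0559) and by limma on FPKM. Neither gene's groups overlapped. Rgs4, another regulator of G protein signalling, ran from 5.34 to 11.8 CPM in Jag antibody mice and from 13.6 to 17.7 CPM in control mice (log2 fold change -0.95 ± 0.24 (SE), adjusted p = 0.0349). Gucy1b1, a subunit of the soluble guanylate cyclase that senses nitric oxide, ran from 3.93 to 5.55 CPM and from 7.09 to 12.1 CPM (log2 fold change -1.05 ± 0.26 (SE), adjusted p = 0.0362). The calls of Rgs4 and Gucy1b1 were lost without mouse 1, 2, 3, 4, 5, 6, 7 or 10 (adjusted p up to 0.152) and without mouse 1, 2, 3, 5, 6, 7 or 10 (adjusted p up to 0.113), respectively, and both with no low-count filter. The other 12 pericyte genes were not called. Among them the second cyclase subunit Gucy1a1 (-0.96 ± 0.33, adjusted p = 0.169) and the matrix protein vitronectin (Vtn, -0.85 ± 0.26, adjusted p = 0.0959) had groups that did not overlap, while the growth factor receptor Pdgfrb gave -0.50 ± 0.17 and the proteoglycan Cspg4 -0.54 ± 0.26. Under the alternatives and with 1 mouse left out, 2 to 8 pericyte genes were called lower.

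Vascular smooth muscle genes had a negative log2 fold change for 15 of 15 members (median -0.68), but the 1 called member was Rgs5, which the list shares with the pericytes. Without Rgs5 the summed level of the other 14 was 127 to 228 against 167 to 407 CPM (Jag antibody against control mice), and the groups overlapped. Smooth muscle actin (Acta2), which the list is best known for, gave -0.68 ± 0.49 (SE, adjusted p = 0.647). For the 17 pericyte genes other than Rgs5 the sums were 510.4 to 999.9 against 747 to 1493 CPM. Of 16 endothelial genes and 10 arterial genes none was called, with medians of 0.05 and 0.03. The endothelial adhesion genes Cdh5 and Pecam1 gave -0.27 ± 0.30 and 0.17 ± 0.20.

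The promoters of the 4 called genes of the pericyte and Notch lists that have an entry in the RefSeq table (GRCm38.p6) are shown because these genes fell together and the blocked ligands act through RBPJ. Each run is the 250 bases before the gene's start, 5′ to 3′ along the gene's strand, and capitals mark the RBPJ core motif TGGGAA, searched on both strands. Rgs5 lies on the plus strand at chr1:169655251-169655500, Rgs4 on the minus strand at chr1:169747643-169747892, Gucy1b1 on the minus strand at chr3:82074712-82074961 and Notch3 on the minus strand at chr17:32166891-32167140.
Rgs5: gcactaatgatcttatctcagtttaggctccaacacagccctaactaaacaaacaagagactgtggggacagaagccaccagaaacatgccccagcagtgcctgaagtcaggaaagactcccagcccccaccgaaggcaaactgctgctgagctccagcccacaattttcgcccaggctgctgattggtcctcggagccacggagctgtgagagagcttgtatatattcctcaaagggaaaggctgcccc
Rgs4: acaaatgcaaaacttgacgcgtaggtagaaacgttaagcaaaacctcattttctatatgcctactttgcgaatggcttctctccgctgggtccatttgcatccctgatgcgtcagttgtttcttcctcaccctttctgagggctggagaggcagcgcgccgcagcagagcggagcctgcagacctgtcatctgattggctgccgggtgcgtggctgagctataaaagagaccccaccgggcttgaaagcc
Gucy1b1: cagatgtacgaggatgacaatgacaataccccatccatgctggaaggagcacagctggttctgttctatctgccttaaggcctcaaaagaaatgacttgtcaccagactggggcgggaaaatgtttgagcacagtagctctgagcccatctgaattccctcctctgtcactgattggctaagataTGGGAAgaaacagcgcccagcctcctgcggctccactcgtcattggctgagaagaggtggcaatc
Notch3: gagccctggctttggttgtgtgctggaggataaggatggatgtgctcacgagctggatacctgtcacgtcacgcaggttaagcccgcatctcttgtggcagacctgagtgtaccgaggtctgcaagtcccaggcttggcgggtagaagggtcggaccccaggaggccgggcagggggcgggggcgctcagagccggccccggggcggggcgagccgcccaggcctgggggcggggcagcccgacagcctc
The motif occurs 1 time in these windows, in Gucy1b1, with its first base 65 bases before the start. Of all 32851 promoter windows of this length in the table, 7094 (21.6%) hold it on either strand. Cox4i2 and Ndufa4l2 are the other called genes of these lists.

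Of 8 tested Notch receptors and ligands, 1 was called, Notch3. The blocked ligands themselves were measured at 30.0 to 48.9 CPM in Jag antibody mice against 32.2 to 44.7 CPM in control mice for Jag1 and at 8.45 to 20.9 against 12.0 to 21.4 CPM for Jag2, with log2 fold changes of 0.02 ± 0.24 and -0.22 ± 0.31 (SE). An antibody against a protein need not alter the ligand's RNA, so these values do not check the labels. The receptors Notch1, Notch2 and Notch4 gave -0.14 ± 0.43, -0.01 ± 0.27 and 0.07 ± 0.29. Among 11 Notch target genes 1 was called, Notch3, which both lists hold, and the median was 0.06. The classical targets Hes1, Hey1 and Heyl, transcriptional repressors that Notch switches on, gave 0.20 ± 0.27, 0.06 ± 0.27 and -0.71 ± 0.42, none called. None of 20 further pathway components was called (median -0.10).

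Collagen genes held more lower calls than any other list examined. Of 21 collagens, 11 were called lower and 0 higher, all 21 had a negative log2 fold change, and the median was -1.34. Col1a1, the main chain of fibrillar collagen I at chr11:94936224-94953042, gave 281, 432, 682, 761 and 544 CPM in control mice 1 to 5 and 129, 171, 88.4, 226 and 154 CPM in Jag antibody mice 6 to 10. The groups did not overlap (log2 fold change -1.81 ± 0.41 (SE), adjusted p = 0.0179), and the call was lost without mouse 3, 4, 6, 8 or 10 (adjusted p up to 0.0757). Col3a1, the chain of collagen III, gave 1522, 2185, 2886, 2358 and 2332 CPM in control and 595, 1143, 320.4, 821 and 696 CPM in Jag antibody mice, also without overlap (log2 fold change -1.66 ± 0.36 (SE), adjusted p = 0.0107). Col1a2, the partner chain of collagen I, changed by -1.46 ± 0.38 on the log2 scale (adjusted p = 0.0454), a call lost without mouse 2, 3, 4, 5, 6, 7, 8, 9 or 10 (adjusted p up to 0.16), with RLE scaling, with the mitochondrial genome left out, with no low-count filter and with length and GC offsets.

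The 3 chains of collagen VI, a microfibril of the cell surface that is abundant in fat, fell by similar amounts. Col6a1 gave 224, 262, 367, 389 and 321 CPM in control and 119, 141, 109.5, 176 and 125 CPM in Jag antibody mice (log2 fold change -1.22 ± 0.23 (SE), adjusted p = 0.00416). Col6a2 and Col6a3 had log2 fold changes of -1.34 ± 0.26 and -1.22 ± 0.25 (SE), and all 3 stayed called with any 1 mouse left out. In each of the 3, Jag antibody mouse 9 had the highest Jag antibody value, still below the lowest control value, that of mouse 1. Collagen V chains followed, with Col5a3 at 139, 156, 228, 239 and 181 CPM in control and 59.7, 55.2, 82.1, 74.8 and 54.9 CPM in Jag antibody mice (log2 fold change -1.53 ± 0.33 (SE), adjusted p = 0.013), lost without mouse 10 (adjusted p up to 0.0566), and Col5a1 at -1.35 ± 0.30 (adjusted p = 0.0152), lost without mouse 3, 4, 6 or 8 (adjusted p up to 0.0694). Col8a1, a short chain collagen of vessels, stayed called in every fit (-1.46 ± 0.31, adjusted p = 0.00815). Col15a1 and Col16a1 had groups that overlapped (-1.15 ± 0.30 and -1.35 ± 0.31), and their calls were lost without mouse 2, 3, 4, 5, 6, 7, 8 or 10 (adjusted p up to 0.166) and without mouse 3, 4, 6, 8 or 10 (adjusted p up to 0.099), respectively, that of Col15a1 also with no low-count filter and with length and GC offsets. The basement membrane chains Col4a1 and Col4a2 were not called (-0.88 ± 0.30 and -0.66 ± 0.27).

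The summed collagen level was 2481 to 3568 CPM in the Jag antibody mice and 4689 to 8695 CPM in the control mice, without overlap. At 7 d without hormone the same sum was 535 to 1105 CPM in Jag antibody mice and 1181 to 1838 CPM in control mice. Every mouse with hormone thus had a higher summed collagen level than every mouse without it at 7 d, and the Jag antibody mice were the lower group in both settings. The libraries of the 2 settings also differed in the slope of relative log2 CPM, each gene against its mean over the libraries, on log2 gene length. This slope was -0.542 to 0.0257 in the mice without hormone at 7 d and 0.0399 to 0.247 in those with it. Its part in the collagen sums was not tested. Between 6 and 15 collagens were called lower under the alternatives and with 1 mouse left out, and the median stayed negative. Markers of adipose progenitors and fibroblasts, the cells that make most fibrillar collagen, held fewer calls: 1 of 16 was called (Sparc, a collagen-binding matrix protein, log2 fold change -0.83 ± 0.19 (SE), adjusted p = 0.0222, lost without mouse 3, 4, 5, 6, 8 or 10 (adjusted p up to 0.1) and with no low-count filter). Of the 16 markers, 13 had a negative and 3 a positive log2 fold change, and the median was -0.35. Pdgfra, the surface receptor that defines these cells, gave -0.34 ± 0.24, the matrix proteins Dcn and Lum 0.34 ± 0.26 and -0.95 ± 0.34. The part of cell number in the collagen values was not tested.

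**Figure D2:**
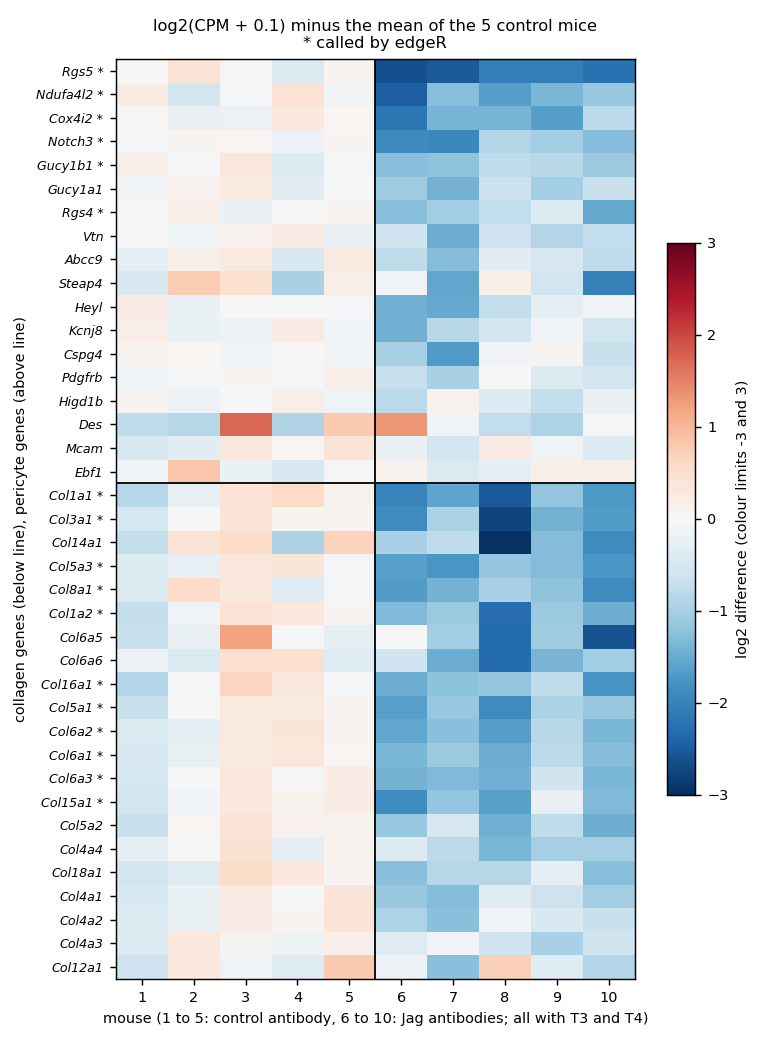
Rows are the 18 pericyte genes (above the line) and the 21 collagens (below it), columns are control mice 1 to 5 and Jag antibody mice 6 to 10, and colour is log2(CPM + 0.1) minus the mean of the 5 control mice. Stars mark the 6 pericyte genes and 11 collagens that edgeR called, and blue fills most of the right side, with Jag antibody mouse 9 paler in several collagens.

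Among genes of the brown adipocyte itself, 1 of 18 was called. Adrb3, the beta3-adrenergic receptor through which noradrenaline drives brown fat, at chr8:27225776-27250616, stood at 213, 247, 159, 203 and 98.6 CPM in control mice and at 47.5, 20.9, 22.5, 60.3 and 19.3 CPM in Jag antibody mice. The groups did not overlap, and the gene stayed called in every fit (log2 fold change -2.43 ± 0.37 (SE), adjusted p = 0.000205). The annotation places the antisense gene Gm45470 over Adrb3, and reads of the 2 cannot be told apart without strand. Without hormone the 7 d values were 485, 378, 405, 438 and 444 CPM in control and 199, 475, 395, 216 and 512 CPM in Jag antibody mice, which overlapped, with a log2 fold change of -0.26 (adjusted p = 0.699). So Adrb3 was lowest in the mice given both Jag antibodies and hormone, where all 5 values lay below those of the other 3 groups at 7 d. The difference between the 2 antibody effects was -2.17 ± 0.50 (SE), not called by edgeR (adjusted p = 0.325) or by limma on log2(FPKM + 1). DESeq2 called it (adjusted p = 0.0477). Adrb1, the beta1-adrenergic receptor, gave -0.55 ± 0.39, and none of the 24 tested genes of adrenergic and cAMP signalling other than Adrb3 was called.

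The remaining brown adipocyte genes were not called. Ucp1 differed by 0.05 ± 0.41 on the log2 scale (adjusted p = 0.981), the lipid droplet protein Cidea 0.17 ± 0.36 and the deiodinase Dio2, which makes T3 from T4 in brown fat, -0.42 ± 0.63. The Ucp1 values of the groups overlapped. The list median was 0.16, and that of 13 general adipocyte genes, of which none was called, was 0.28. Adiponectin (Adipoq) gave 753 to 1157 CPM in Jag antibody and 498 to 603 CPM in control mice without overlap, but was not called (log2 fold change 0.78 ± 0.25 (SE), adjusted p = 0.116). Secreted factors of brown fat held 2 lower genes of 20. Bmp8b, a growth factor that brown adipocytes release and that raises their response to noradrenaline, gave 7.31, 28.5, 7.39, 10.0 and 7.13 CPM in control and 0.600, 1.60, 0.899, 3.26 and 0.386 CPM in Jag antibody mice (log2 fold change -3.14 ± 0.62 (SE), adjusted p = 0.00518). Control mouse 2 stood far above the other control mice, and the gene stayed called without it. Its span overlaps Ppie, Gm17244 and Oxct2b. Ptgds, the lipocalin-type prostaglandin D synthase, gave 75.6, 55.9, 34.4, 78.6 and 70.9 CPM and 6.81, 10.4, 13.4, 29.8 and 16.2 CPM in the same order (log2 fold change -2.04 ± 0.52 (SE), adjusted p = 0.0404), a call lost without mouse 1, 2, 4, 5, 6, 7, 8 or 10 (adjusted p up to 0.134) and with no low-count filter. Ptgds ran from 10.9 to 21.5 CPM in control mice and from 1.77 to 15.9 CPM in Jag antibody mice at 7 d without hormone, so it was high in the control mice with hormone and not in the others.

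**Figure D3:**
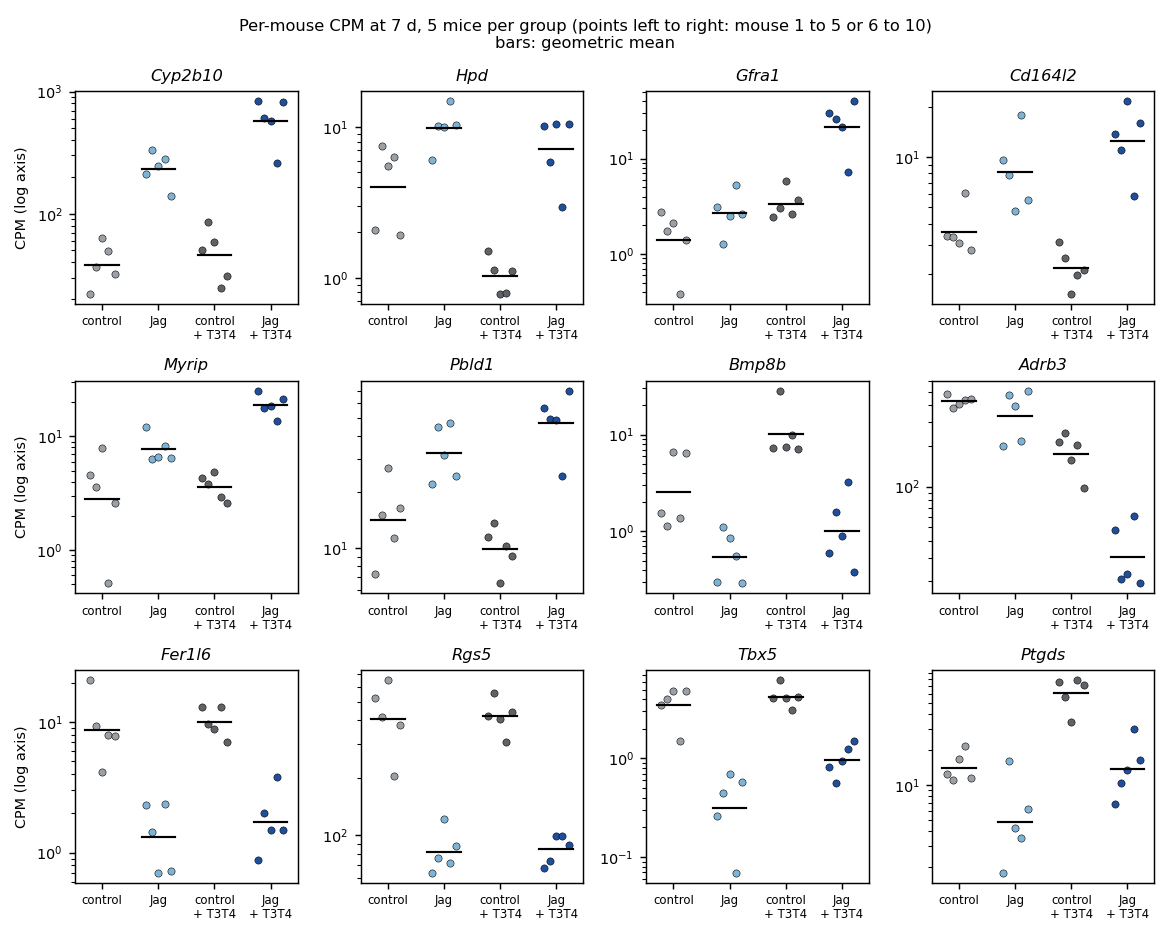
CPM on a log axis for each mouse at 7 d in 4 groups of 5, without hormone (left) and with T3 and T4 (right), for the 6 genes with the largest rise and the 6 with the largest fall under the rule for named genes, with bars at the geometric mean. The rule took only genes whose antibody groups under hormone did not overlap, so the lack of overlap there was set by the choice. Adrb3 is lowest in the rightmost group, with the control mice given hormone between it and the control mice without hormone. Rgs5 is as low in Jag antibody mice with hormone (67.0 to 99.1 CPM) as without it (63.5 to 122 CPM).

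Several genes of drug and steroid metabolism were higher in the Jag antibody mice. Of 24 tested genes of the list, 4 were called higher and 1 lower, 22 had a positive log2 fold change, and the median was 0.77. Cyp2b10, a cytochrome P450 known as the main target of the nuclear receptor CAR in liver, at chr7:25897620-25926624, stood at 50.8, 85.6, 58.7, 24.7 and 31.0 CPM in control mice 1 to 5 and at 836, 603, 579.7, 259 and 826 CPM in Jag antibody mice 6 to 10. It had the largest rise of the named genes and stayed called in every fit (log2 fold change 3.63 ± 0.58 (SE), adjusted p = 0.000509). Close paralogs of Cyp2b10 exist, and reads that they share are uncertain. Fmo2, a flavin monooxygenase, gave 40.2, 39.5, 36.8, 24.0 and 43.9 CPM in control and 144, 103, 159, 82.1 and 101 CPM in Jag antibody mice (log2 fold change 1.67 ± 0.34 (SE), adjusted p = 0.0068). Sult1a1, a sulfotransferase of phenols and thyroid hormone, and the carboxylesterase Ces1f had log2 fold changes of 1.40 ± 0.31 and 1.33 ± 0.31 (SE, adjusted p = 0.0152 and 0.02). Their calls were lost without mouse 2, 4, 5 or 6 (adjusted p up to 0.0599) and without mouse 2, 4, 6 or 10 (adjusted p up to 0.134), respectively. The 1 lower gene was Ephx1, the microsomal epoxide hydrolase, at 16.4 to 20.5 CPM in Jag antibody and 26.8 to 41.5 CPM in control mice (log2 fold change -0.88 ± 0.20 (SE), adjusted p = 0.0201), lost without mouse 1, 3, 6, 8 or 10 (adjusted p up to 0.0833). CAR itself (Nr1i3) gave 0.18 ± 0.25 (SE) and was not called. Under the alternatives and with 1 mouse left out, 2 to 9 genes of the list were called higher. The summed level of the 4 tested liver cell genes was 1.59 to 5.64 CPM in the Jag antibody mice and 1.25 to 47.2 CPM in the control mice, and the part of liver RNA was not tested.

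Several enzymes that break down amino acids rose. Of 21 genes of branched-chain amino acid catabolism, 3 were called higher and 0 lower, and 19 had a positive log2 fold change (median 0.42). Bcat2, the mitochondrial transaminase of the first step, gave 124, 91.8, 102, 117 and 103 CPM in control and 435, 226, 331, 206 and 407 CPM in Jag antibody mice without overlap (log2 fold change 1.58 ± 0.22 (SE), adjusted p = 8.27e-05). Ppm1k, the phosphatase that activates the branched-chain ketoacid dehydrogenase, and Ivd, which acts on the leucine branch, had log2 fold changes of 1.00 ± 0.26 and 0.87 ± 0.21 (SE, adjusted p = 0.0495 and 0.0327). The first call was lost without mouse 1, 2, 3, 4, 5, 6, 7 or 10 (adjusted p up to 0.218) and the second without mouse 2, 3, 4, 5, 6, 8 or 10 (adjusted p up to 0.149), both also with no low-count filter. The kinase that inhibits the dehydrogenase, Bckdk, gave 0.02 ± 0.23. Hsd17b10, a mitochondrial dehydrogenase of isoleucine breakdown that the size rule named, rose by 1.83 ± 0.32 (SE, adjusted p = 0.00153), from 119 to 251.6 CPM in control mice to 355 to 762 CPM in Jag antibody mice.

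In tyrosine breakdown, Hpd, the dioxygenase that converts hydroxyphenylpyruvate, gave 1.51, 1.12, 0.780, 0.793 and 1.10 CPM in control and 10.2, 5.87, 10.4, 2.97 and 10.6 CPM in Jag antibody mice (log2 fold change 2.91 ± 0.55 (SE), adjusted p = 0.00352). At 7 d without hormone Hpd ran from 1.91 to 7.55 CPM in control and from 6.07 to 14.9 CPM in Jag antibody mice, so the control mice with hormone were lower than those of the other 3 groups. Its span overlaps Psmd9 on the opposite strand. Pcbd1, which recycles the cofactor of phenylalanine hydroxylase, was called lower at very low depth, with 7 to 22 counts in control mice and 0 to 2 in Jag antibody mice (log2 fold change -3.26 ± 0.74 (SE), adjusted p = 0.0164), a call lost without mouse 1, 6 or 10 (adjusted p up to 0.0575) and by limma on FPKM. Prodh, the mitochondrial proline dehydrogenase, gave 52.8, 43.2, 40.6, 39.5 and 39.1 CPM in control and 198, 134, 245, 95.1 and 229 CPM in Jag antibody mice (log2 fold change 2.06 ± 0.28 (SE), adjusted p = 7.23e-05). It stayed called in every fit and differed by 1.24 (adjusted p = 0.0117) without hormone. Its span overlaps Dgcr6 on the opposite strand. Jag antibody mouse 9 had the lowest Jag antibody value in Bcat2, Hpd and Prodh.

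Further amino acid enzymes were grouped in 3 lists chosen after their values were seen, so their counts are descriptions. In one-carbon and sulfur amino acid metabolism 7 of 28 genes were called higher and 0 lower. Of the 28, 17 had a positive and 11 a negative log2 fold change, with a median of 0.28. Cbs, cystathionine beta-synthase, gave 0.655, 0.618, 1.11, 0 and 0.285 CPM in control and 9.54, 3.02, 6.13, 2.02 and 5.23 CPM in Jag antibody mice (log2 fold change 3.26 ± 0.55 (SE), adjusted p = 0.000845). The folate enzyme Aldh1l1 rose by 1.22 ± 0.18 (SE, adjusted p = 0.0002) and stayed called in every fit. The others were cystathionine gamma-lyase Cth (1.46 ± 0.34, lost without mouse 1, 4, 5, 6 or 10 (adjusted p up to 0.0897)), Ahcy, which hydrolyses adenosylhomocysteine (1.41 ± 0.30, lost without mouse 6 (adjusted p up to 0.054)), Shmt1 (0.96 ± 0.25), Mthfd1 (0.49 ± 0.12) and glutathione synthetase Gss (0.79 ± 0.19). Those of Shmt1, Mthfd1 and Gss were lost without mouse 1, 2, 3, 4, 5, 6, 7, 8 or 10 (adjusted p up to 0.212), without mouse 1, 2, 3, 4, 6 or 10 (adjusted p up to 0.181) and without mouse 1, 2, 3, 4, 6, 8 or 10 (adjusted p up to 0.135), respectively, each also with no low-count filter, that of Shmt1 also with the muscle score as covariate, and that of Cth by limma. Among 17 genes of proline, glutamate and urea cycle metabolism 3 were called higher, Prodh, glutamate dehydrogenase Glud1 with 299.8 to 589.5 CPM in Jag antibody against 214 to 240.3 CPM in control mice (log2 fold change 1.07 ± 0.15 (SE), adjusted p = 7.23e-05), and argininosuccinate lyase Asl (1.14 ± 0.21, adjusted p = 0.00335). The 12 genes of lysine and tryptophan breakdown did not rise as a list, with 6 positive and 6 negative log2 fold changes and a median of -0.10. Of them, Gcdh, Kyat1 and Kyat3 were called higher (0.86 ± 0.20, 0.70 ± 0.17 and 0.95 ± 0.23), with calls lost without mouse 2, 3, 5, 6 or 10 (adjusted p up to 0.0927), without mouse 2, 3, 5, 6, 8 or 10 (adjusted p up to 0.119) and without mouse 2, 3, 4, 5, 6, 7 or 10 (adjusted p up to 0.113), respectively, that of Kyat1 also with no low-count filter and that of Kyat3 with length and GC offsets. Asns, the asparagine synthetase of the stress response, was the 1 called of 21 stress genes (log2 fold change 0.86 ± 0.20 (SE), adjusted p = 0.0193, lost without mouse 2, 3, 5, 6 or 10 (adjusted p up to 0.0685)).

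Other genes with large rises had varied roles. Gfra1, the receptor for the neurotrophic factor GDNF, at chr19:58235604-58455909, gave 2.42, 3.01, 5.79, 2.61 and 3.71 CPM in control and 29.9, 26.1, 21.4, 7.18 and 40.3 CPM in Jag antibody mice. It stayed called in every fit (log2 fold change 2.83 ± 0.42 (SE), adjusted p = 0.000168), and Jag antibody mouse 9 was nearest to the controls. Gm16277 overlaps Gfra1 in the annotation. Ret, the receptor kinase that signals with Gfra1, gave -0.65 ± 0.33 (adjusted p = 0.436), and no other of the 14 tested neurotrophic and gp130 receptors was called. Igfbp3, a binding protein of insulin-like growth factors, gave 13.5, 25.0, 27.6, 13.3 and 26.9 CPM in control and 119, 63.9, 141, 83.1 and 64.8 CPM in Jag antibody mice (log2 fold change 2.15 ± 0.30 (SE), adjusted p = 7.23e-05). The change without hormone was 2.17 (adjusted p = 5.95e-05), nearly the same size. Cd164l2, Pbld1, Hsd17b14, a steroid dehydrogenase, and Sytl1, a synaptotagmin-like protein, stayed called in every fit, with log2 fold changes of 2.60 ± 0.44, 2.29 ± 0.43, 2.28 ± 0.45 and 1.93 ± 0.40 (SE). Cd164l2 overlaps Gpr3 and Pbld1 overlaps Gm48072. Myrip, which links myosin to secretory granules, and Tc2n rose by 2.39 ± 0.54 and 1.85 ± 0.43, with calls lost without mouse 4, 5 or 6 (adjusted p up to 0.0632) and without mouse 3, 4, 6 or 10 (adjusted p up to 0.0874), respectively. Myrip overlaps Gm15565 and Gm15566, and Tc2n overlaps Gm16285. Tsc22d3, a glucocorticoid-induced regulator, was the 1 called of 15 glucocorticoid response genes (log2 fold change 1.15 ± 0.29 (SE), adjusted p = 0.0383), its groups overlapped, and its call was lost without mouse 1, 2, 4, 5, 6, 7, 9 or 10 (adjusted p up to 0.161), with RLE scaling and with no low-count filter. Fkbp5, the best known member of that list, gave 115 to 196 CPM in Jag antibody and 19.9 to 73.8 CPM in control mice without overlap but was not called (log2 fold change 2.09 ± 0.59 (SE), adjusted p = 0.0718).

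Of the remaining genes with large falls, Fer1l6, a ferlin family membrane protein, gave 13.1, 9.69, 8.87, 13.1 and 6.98 CPM in control and 0.872, 2.03, 1.48, 3.77 and 1.49 CPM in Jag antibody mice (log2 fold change -2.41 ± 0.47 (SE), adjusted p = 0.00416). Tbx5, a T-box transcription factor, gave 4.13, 6.25, 4.11, 3.08 and 4.24 CPM and 0.818, 0.561, 0.952, 1.25 and 1.49 CPM in the same order (log2 fold change -2.10 ± 0.43 (SE), adjusted p = 0.00734). Nrep, a small protein of regenerating and contractile tissue, gave 80.0, 84.9, 128, 88.4 and 108 CPM and 29.9, 28.0, 30.9, 30.0 and 23.5 CPM (log2 fold change -1.78 ± 0.29 (SE), adjusted p = 0.00065). The rule that named these 3 required groups without overlap, and each stayed called in every fit. Npnt, the matrix protein nephronectin, had 2.75 to 7.72 CPM in Jag antibody against 13.6 to 25.2 CPM in control mice (log2 fold change -1.92 ± 0.48 (SE), adjusted p = 0.0342), lost without mouse 2, 3, 4, 5, 6, 8, 9 or 10 (adjusted p up to 0.13) and with no low-count filter.

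Both groups received hormone, and of 15 thyroid hormone target genes, 1 was called between antibodies. Hr, the corepressor Hairless that thyroid hormone induces directly, gave 71.8, 85.8, 112, 99.8 and 116 CPM in control and 32.3, 39.2, 57.9, 40.7 and 40.2 CPM in Jag antibody mice with hormone (log2 fold change -1.21 ± 0.29 (SE), adjusted p = 0.0239), lost without mouse 3, 4, 5, 6 or 10 (adjusted p up to 0.0892). At 7 d without hormone its range was 12.5 to 27.7 CPM in control and 5.73 to 18.7 CPM in Jag antibody mice, so the Jag antibody mice with hormone were still above every mouse without it. Thrsp and Me1, lipogenic targets, gave -0.08 ± 0.52 and -1.29 ± 0.47, and none of 13 receptors, transporters and deiodinases was called (median 0.07).

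In lipid metabolism, fatty acid synthesis genes had a negative log2 fold change for 19 of 19 members (median -0.97), with 1 called lower. That gene was Fads2, the delta-6 desaturase, at 1.47 to 3.04 CPM in Jag antibody and 5.02 to 7.51 CPM in control mice (log2 fold change -1.37 ± 0.32 (SE), adjusted p = 0.0232), lost without mouse 3, 4, 7, 8 or 10 (adjusted p up to 0.0805). Fasn, the fatty acid synthase, was not called. It stood at 23849, 19775, 13491, 16851 and 11882 CPM in control mice and at 1796, 1518, 5158, 15743 and 968 CPM in Jag antibody mice, where mouse 9 lay among the controls (log2 fold change -1.77 ± 0.76 (SE), adjusted p = 0.322). Acly, which makes cytosolic acetyl-CoA, also had mouse 9 within the control range, with 554, 361, 1193, 3226 and 465 CPM in Jag antibody mice against 1789 to 6489.9 CPM in control mice (-1.73 ± 0.73). Under the alternatives and with 1 mouse left out, 0 to 6 members were called lower. Of 21 cholesterol synthesis genes 20 were negative (median -0.52) and none was called. Fatty acid oxidation genes had a median of 0.23 with none of 25 called. Nuclear genes of the respiratory chain were positive for 48 of 49 members (median 0.31), and the 13 genes of the mitochondrial genome for 13 of 13 (median 0.45), with none called in either list, beside the higher mitochondrial share of these libraries.

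**Figure D4:**
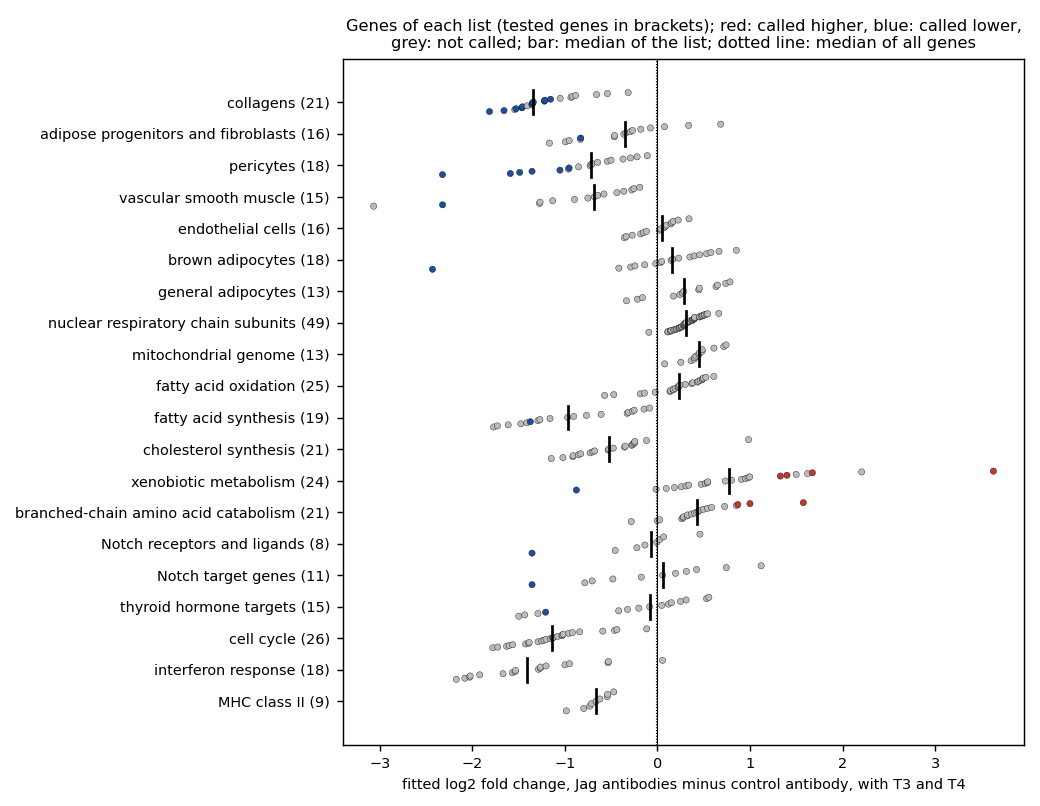
Each point is 1 tested gene of 1 of 20 lists, a choice from all lists examined, at its fitted log2 fold change between antibodies under hormone, with red for called higher, blue for called lower and grey for not called. Bars mark list medians, which among the 20 lists drawn run from -1.41 for the interferon response and -1.34 for collagens to 0.77 for xenobiotic metabolism.

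Of the genes of dividing cells, all 26 on the list had a negative log2 fold change (median -1.14), and 1 was called, the DNA replication helicase subunit Mcm2 (log2 fold change -1.13 ± 0.30 (SE), adjusted p = 0.0484), which was lost without mouse 3, 4, 5, 6, 8, 9 or 10 (adjusted p up to 0.174) and under 4 of the alternatives. Mki67, the proliferation marker, gave 27.6, 34.7, 50.7, 48.0 and 72.6 CPM in control and 8.40, 28.8, 5.82, 23.9 and 12.0 CPM in Jag antibody mice, where mouse 7 alone overlapped the controls (log2 fold change -1.56 ± 0.48 (SE), adjusted p = 0.105). At 7 d without hormone Mki67 was at 0.253 to 2.77 CPM in control and 0.759 to 3.02 CPM in Jag antibody mice. Up to 19 of the 26 were called lower under an alternative, and 0 under others. Interferon response genes were negative for 17 of 18 (median -1.41) with 0 called by edgeR and 0 to 2 called lower under the alternatives, and Ifit1, an interferon-induced RNA binding protein, stood at 12.1, 11.8, 34.8, 60.1 and 12.9 CPM in control mice and 5.51, 13.0, 2.64, 6.30 and 3.53 CPM in Jag antibody mice, with control mice 3 and 4 highest. All 9 genes of MHC class II were negative (median -0.66), and none was called. No gene was called among markers of resident macrophages (median -0.32), lipid-associated macrophages (-0.19), neutrophils and monocytes (0.18), lymphocytes (-0.33), Schwann cells (-0.52) and skeletal muscle fibres (-1.81), among the clock genes (0.09) or among immediate early genes (-0.26).

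The called genes were then read in the 30 mice without hormone, which share no animal with this comparison. Of the 119 genes higher under hormone, 110 were also positive at 7 d without it, 31 of them called (1.21% of all genes were called higher there), and of the 75 lower genes 70 were also negative, 30 of them called (1.29%). Over all genes 53.6% were positive and 46.4% negative at 7 d. The medians without hormone were 0.64 for the higher genes, against 1.21 with it, and -0.89 for the lower genes, against -1.36. Since these genes were chosen for their change under hormone, their larger medians there are not read as a difference between conditions. Of all genes, 2.5% were called at 7 d without hormone and 8.02% at 5 d. At 5 d 112 of the 119 were positive (35 called, background 2.09%) and 70 of the 75 negative (43 called, background 5.93%). Over all genes 53.4% were positive and 46.6% negative at 5 d. At 15 h, 94 (79.0%) and 46 (61.3%) kept their sign, with 5 (background 0.234%) and 3 (background 0.902%) called. Over all genes 45.0% were positive and 55.0% negative at 15 h, so the share of the lower genes was near that of all genes. None of the genes called under hormone was called in the opposite direction at any of these times. By list, 7 of 18 pericyte genes were called lower at 7 d without hormone (median -0.66) and 2 of 21 collagens (median -0.43), while at 5 d 14 collagens were (median -1.18). Of the fatty acid synthesis genes 5 of 19 were called lower at 7 d (median -1.27). Nuclear respiratory chain genes had a median of -0.78 at 7 d without hormone and 0.31 with it. Beside this value, the control libraries at 7 d without hormone had TMM factors of 0.647 to 0.926 and slopes of relative log2 CPM, each gene against its mean over the libraries, on log2 gene length of -0.542 to -0.0593, against 1.01 to 1.18 and 0.0399 to 0.247 in the 10 mice with hormone. Their control mouse 4 stood lowest in both and held 12217623 counts. The summed level of the respiratory chain list in these 5 control libraries had a median of 66875 CPM and a highest value of 136129 CPM. Cytosolic ribosomal protein genes had medians of -0.63 without and 0.28 with hormone, and the part of these library measures was not tested. For cell cycle genes the medians were -0.00437 and -1.14. Without hormone the summed level of this list was 34.7 to 550 CPM (median 39.1) in Jag antibody mice. In control mice without hormone it was 36.2 to 355 CPM (median 38.9). With hormone the sums were 58.0 to 212 CPM (median 94.4) and 171 to 377 CPM (median 318), in the same order.

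**Figure D5:**
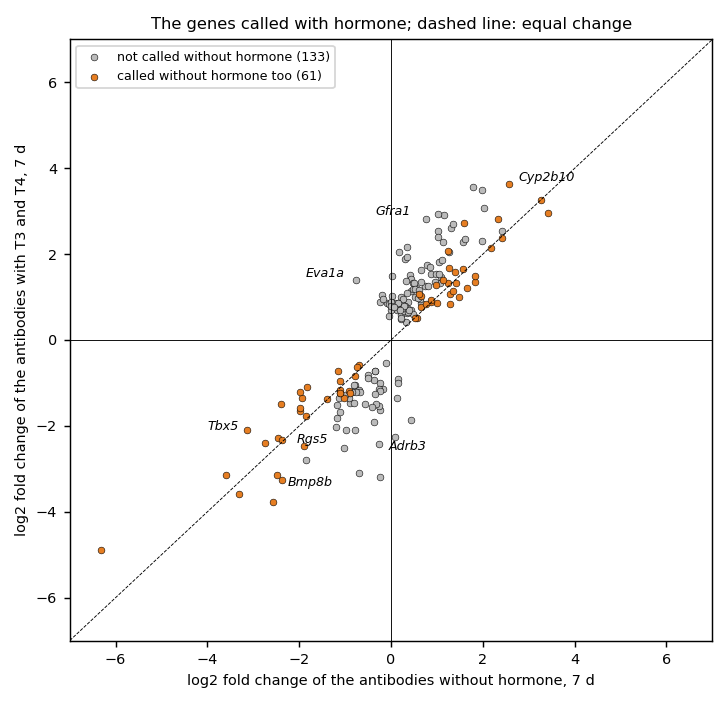
The 194 genes called under hormone, with the antibody log2 fold change without hormone at 7 d on the horizontal axis and with hormone on the vertical axis. Orange marks the 61 genes called in both comparisons, and Adrb3 and Eva1a lie far from the dashed line of equal change.

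Whether hormone altered the antibody effect was tested by the interaction between the 4 groups at 7 d. Of 17079 genes, 1 was called (0.00586%), while 2103 had an unadjusted p under 0.05. In the antibody comparison under hormone, with its 194 calls, 2026 genes had an unadjusted p under 0.05. With 1 mouse left out, these numbers ran from 1297 to 2718 for the interaction and from 1539 to 2037 for the antibody comparison. The gene called in the interaction was Eva1a, a membrane protein of lysosomes and the endoplasmic reticulum linked to autophagy, at chr6:82041043-82093099. With hormone it stood at 2.87, 2.93, 3.69, 2.75 and 2.17 CPM in control and 6.92, 8.93, 7.61, 3.96 and 10.4 CPM in Jag antibody mice. Without hormone it stood at 2.99, 8.61, 7.86, 7.22 and 7.37 CPM in control and 3.53, 5.62, 3.65, 2.83 and 4.51 CPM in Jag antibody mice. The difference of the 2 effects was 2.14 ± 0.39 (SE, log2 scale, adjusted p = 0.0494), and the call was lost in 17 of the 20 fits that left out 1 mouse (adjusted p up to 0.243), all but those without control mouse 1 or Jag antibody mouse 7 of the groups without hormone or Jag antibody mouse 9 with hormone. Gm15864, on the opposite strand, overlaps Eva1a. Gfra1 and Adrb3, read after their values were seen, had differences of 2.06 ± 0.58 and -2.17 ± 0.50 (SE) with adjusted p of 0.374 and 0.325 by edgeR. Limma on log2(FPKM + 1) called the Gfra1 interaction (adjusted p = 0.0125) but not that of Adrb3. DESeq2 called that of Adrb3 (adjusted p = 0.0477) but not that of Gfra1. With 1 mouse left out, the edgeR adjusted p reached 0.621 for Gfra1 and 0.561 for Adrb3. The interaction had medians of -1.15 over the cell cycle genes, -0.54 over the collagens and 1.09 over nuclear respiratory chain genes, against -0.07 over all genes, with none of these members called by edgeR. Of the 26 cell cycle genes, 7 were called lower in the interaction by limma and 1 by DESeq2. Without control mouse 4 of the group without hormone the median of the nuclear respiratory chain genes was 0.76, and that of the cytosolic ribosomal protein genes moved from 0.83 to 0.45. With length and GC offsets the medians were 0.97 for the nuclear respiratory chain genes and 0.82 for the cytosolic ribosomal protein genes. In the same fit they were -1.02 for the cell cycle genes and -0.11 for the collagens, against 0.08 over all genes. On limma's log2(FPKM + 1) scale the median was -0.29 for the cell cycle genes and 1.02 for the nuclear respiratory chain genes.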

How the data were processed

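RNA of brown adipose tissue from 40 mice was sequenced as single-end 50 bp reads on an Illumina HiSeq, per the labels' protocols. The authors deposited raw counts per gene and FPKM values for the whole series, and GSNAP and limma are named without a role in the submitters' processing notes. The genome build, the counting tool and its use of strand are not given in the sources used here. Over 14290 genes the ratio of count to deposited FPKM split into a gene term and a library factor. That factor correlated at 1 with DESeq2's size factor, and the gene term was not compared with gene length.

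Counts of all 40 libraries were fitted together over 8 groups in edgeR 4.0.16 (R 4.3.3; TMM, low-count filter by group, robust quasi-likelihood F test, Benjamini-Hochberg adjustment), keeping 17079 of 52636 genes. Antibody effects are 5 against 5 mice, and the interaction is their difference with and without hormone at 7 d. The SE of a log2 fold change was derived from its test, as its absolute value divided by the square root of F. Library measures were compared by exact permutation (SciPy 1.17.1). Alternatives were RLE size factors, no mitochondrial genome, no filter, 10 or 20 mice alone, a muscle covariate, length and GC offsets, a replicate block, DESeq2 1.42.0, limma 3.58.1 on log2(FPKM + 1) and leaving out each mouse. The scripts were tested on simulated counts.

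Named genes are the 12 called genes per direction with the largest change, groups that do not overlap and a mean log2 CPM of at least 1, the called genes of the lists, and genes called in the interaction. For the 12 genes per direction the lack of overlap was part of the choice and is not a result. Genes named beyond this rule are given for context. The comparison and the gene lists were chosen with earlier results of these data known, and 3 lists of amino acid enzymes after the values here were seen. Coordinates are from GENCODE M21 (GRCm38), and not every overlap of annotated genes is named above.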

Additional observations from a re-analysis of the deposited data

Results flagged for a closer look

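Of 138 groups of 5 values of the genes described, 5 held 1 mouse far from the other 4 of its group, where chance alone gives about 6.9. Control mouse 4 had 0.226 log2 CPM of Tc2n, with the nearest control mouse at 1.47. Control mouse 2 had 4.84 log2 CPM of Bmp8b, with the nearest at 3.34, and control mouse 1 had 6.49 log2 CPM of Col5a1, with the nearest at 7.17. Jag antibody mouse 9 had 5.73 log2 CPM of Sult1a1, with the nearest Jag antibody mouse at 6.62, and 8.21 log2 CPM of Col6a3, with the nearest at 7.48. In Sult1a1 and Col6a3, mouse 9 was the Jag antibody mouse closest to the control mice.

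The antibody effect on Eva1a differed between mice with and without hormone by 2.14 on the log2 scale (edgeR interaction, adjusted p = 0.0494). All 5 Jag antibody mice exceeded the control mice with hormone, while 1 of the 5 control mice without hormone lay among the Jag antibody mice and 4 lay above them.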

How the results depend on the processing

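The 194 calls under hormone became 117 with no low-count filter, 694 with the 10 mice fitted alone, 300 with length and GC offsets, 446 by DESeq2 and 505 by limma on log2(FPKM + 1), and ranged from 80 to 232 with 1 mouse left out. Of the 51 named genes, 37 kept their call in every fit that used all mice of the comparison, and none reversed. The single interaction call, Eva1a, became 0 with the mitochondrial genome left out, with no low-count filter, with the 20 mice fitted alone and with the muscle covariate, 12 by DESeq2 and 36 by limma, and ranged from 0 to 2 with 1 mouse left out. The cause of these shifts was not tested. With the mouse number as a replicate block the interaction count was 0, with 2896 genes at an unadjusted p under 0.05. Same-numbered mice with and without hormone had deviations that correlated at a mean of 0.175 under the control antibody (-0.316 to 0.639) and 0.160 under the Jag antibodies (-0.290 to 0.668), so the numbers were not treated as pairs. The 2 antibody groups under hormone share no numbers. With 1 mouse left out, the difference in muscle score ranged from -2.95 to 0.145 and that in myeloid score from -0.190 to 0.228, reversing without control mouse 3 in both (0.145 and 0.0011) and, for the myeloid score, also without control mouse 4 (0.117) or 5 (0.0829) and Jag antibody mouse 9 (0.0195) or 10. Neither score differed detectably. The difference in mitochondrial share ranged from 3.10 to 4.28 percentage points, with exact permutation p from 0.0159 to 0.0317. Genes at a few counts, such as Pcbd1, are limited by depth.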
